A study of Mus musculus with 14 samples.

Results

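The genes described here are 38 nucleolar ribosome biogenesis factors, listed by name as a functional group with no threshold on measured values. The list was drawn up with earlier results of these data known, so its direction is not independent evidence. All 38 were found among the 24035 genes measured in whole mouse ears. They cover the nucleolar scaffold proteins, both families of small nucleolar ribonucleoproteins (snoRNPs, which guide the modification of ribosomal RNA), RNA polymerase I, and assembly factors of the small and large ribosomal subunits. The study sequenced the mRNA of 14 ear samples from mice without Langerhans cells, which are dendritic cells that live in the epidermis, and its title concerns MrgprD neurons and mast cells. LC-DTA mice had lost these cells long term, and LC-DTR mice had lost them 3 days after diphtheria toxin was given. Both sides of the ear were painted with 20 µl of 1% croton oil in vehicle, or with vehicle alone, and the tissue was taken 6 h later. There were 4 LC-DTA croton oil, 3 LC-DTA vehicle, 4 LC-DTR croton oil and 3 LC-DTR vehicle samples. Croton oil is a skin irritant whose phorbol esters activate protein kinase C, and the vehicle was a mixture of acetone and olive oil. What drives either transgene, the age and sex of the mice, and whether each sample came from its own animal were not stated in what was used here, so p-values measure only the spread between these samples. No ears with intact Langerhans cells and no unpainted ears were analysed here, and in both genotypes the vehicle ears lack the same cells as the croton oil ears.

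Ribosomes are assembled in the nucleolus, where RNA polymerase I transcribes a long precursor of ribosomal RNA. The snoRNPs direct its methylation and pseudouridylation, and assembly factors fold and cut it while ribosomal proteins join, so that precursors of the small and the large subunit leave for the cytoplasm. Cells that grow make more of these factors, Myc is one of the known transcriptional activators of their genes, and in skin the basal keratinocytes are among the cells that grow and divide.

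Levels are given in TPM, a unit of relative transcript abundance that divides by gene length and by the sample's total and keeps no sequencing depth. Between 13733 and 14332 genes reached 1 TPM in a sample, and samples of a group correlated at r between 0.9937 and 0.9981 across genes. Keratinocyte markers summed to at least 22406 TPM in every sample, and Cd207, the defining Langerhans cell gene, lay between 0.0567 and 1.88 TPM. All 38 factors passed the filter on low values, and the lowest value of any of them in any sample was 10.7 TPM, of Utp20.

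Croton oil was followed by higher mRNA of nearly every factor in both genotypes. In LC-DTA ears 38 of 38 factors rose, where 24.2% of all 14693 genes tested rose (limma, adjusted p under 0.05). In LC-DTR ears 37 of 38 rose, where 22.1% of the genes tested rose, and Nop10 was the exception. None of the 38 fell in either genotype, although 34.5% of all genes fell in LC-DTA ears and 29.5% in LC-DTR ears. The median log2 difference of the 38 factors was 0.83 in LC-DTA ears, with a range of 0.29 to 1.20, and the median of all genes tested was -0.09. In LC-DTR ears the median of the factors was 0.67, with a range of 0.06 to 1.04, and that of all genes was -0.06. Each log2 difference here is taken on log2(TPM + 1) values, as croton oil minus vehicle or as LC-DTA minus LC-DTR. A change of at least 2-fold was reached by 8 factors in LC-DTA ears and by 2 in LC-DTR ears. In whole tissue, a change in the number of cells that express these genes and a change in their mRNA per cell cannot be told apart.

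The samples of the 2 treatments were well separated. In LC-DTA ears the lowest croton oil sample lay above the highest vehicle sample for 38 of 38 factors, against 26.1% of all genes tested. In LC-DTR ears this held for 33 factors, against 20.6% of all genes, and the treatments overlapped for Nop10, Polr1a, Utp20, Nat10 and Bop1. LC-DTR croton oil sample 2 had the lowest value of its group for 38 of 38 factors, with a median deviation of -0.25 on the log2 scale, while its median deviation over all genes was 0.015. Without that sample the LC-DTR treatments did not overlap for 37 factors, Nop10 being the exception. The sum of the 38 levels was 4567, 5090, 5272 and 5093 TPM in the LC-DTA croton oil samples, against 2940, 2680 and 2881 TPM in the LC-DTA vehicle samples. It was 4312, 3442, 3930 and 4520 TPM in the LC-DTR croton oil samples, against 2740, 2782 and 2393 TPM in the LC-DTR vehicle samples. The ratio of the mean sums was 1.77 in LC-DTA ears and 1.54 in LC-DTR ears, and within each genotype every croton oil sample lay above every vehicle sample.

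**Figure D1:**
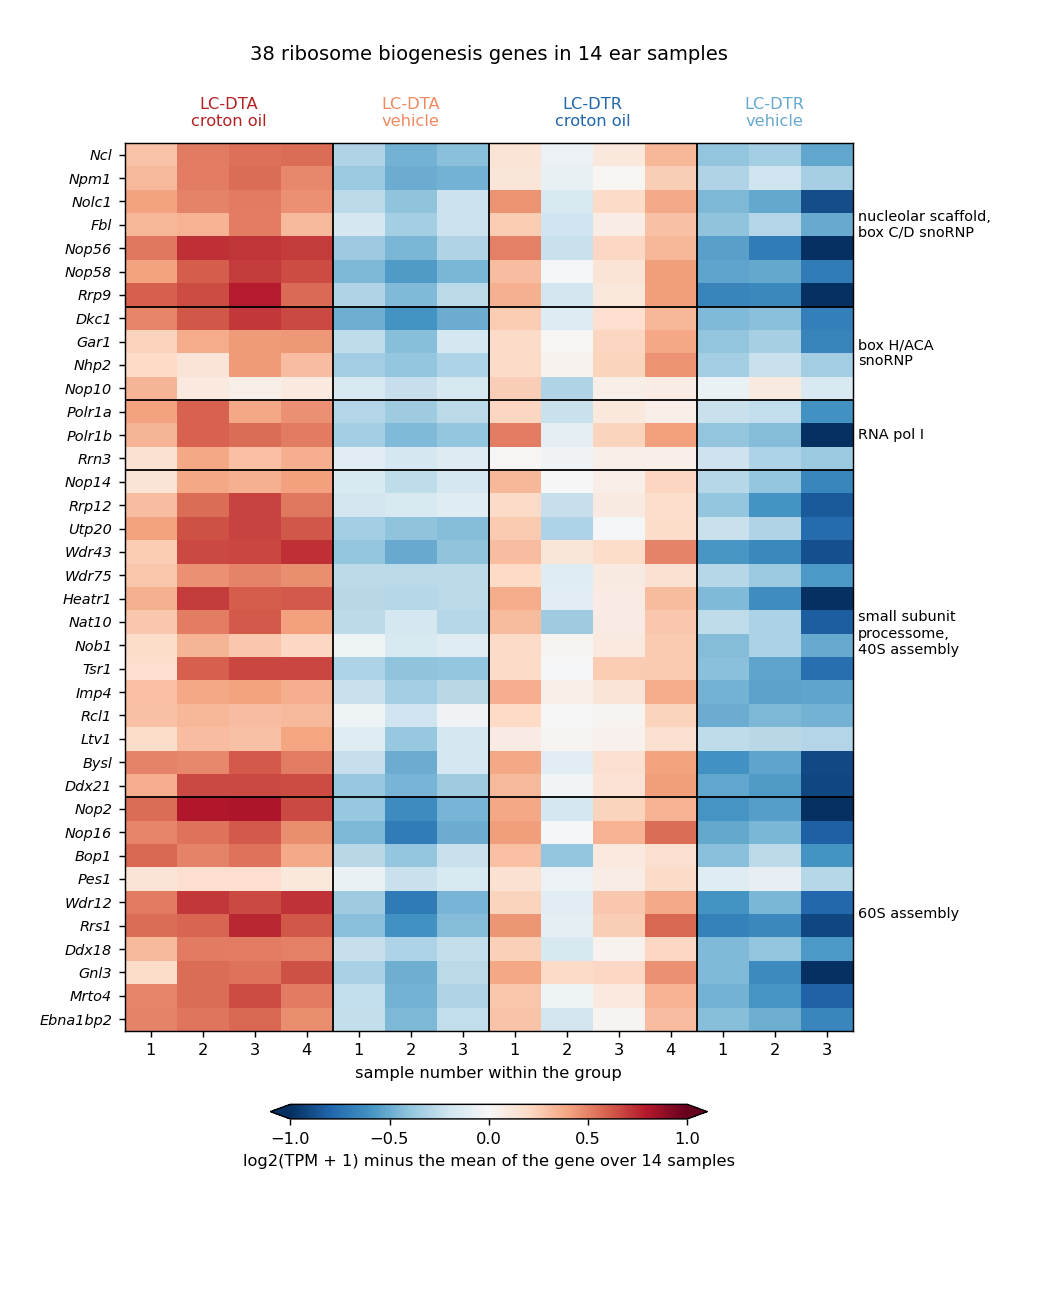
Heat map of the 38 factors (down the page, by role) in the 14 samples (across, by group). Colour gives log2(TPM + 1) minus the gene's mean over the 14 samples, and the scale ends at -1 and 1. Most croton oil columns are red for most factors. LC-DTR croton oil sample 2 was lowest in its group for 38 of 38. It lies below the gene's mean for factors such as Fbl, Nop56 and Utp20, and above it for others such as Gnl3.

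Promoter sequences were taken from RefSeq (GRCm38.p6), as 300 bases with 250 before and 50 after the transcription start, and 33 of the 38 genes were matched. They are shown because the factors moved together and because Myc with its partner Max binds the letters CACGTG. This motif is a palindrome, so both strands read the same, and it was found in the promoters of 8 of the 33 genes (24.2%), against 8.09% of the 27025 genes with a promoter in the table. The 8 genes were Imp4, Ltv1, Nop2, Pes1, Rrn3, Tsr1, Utp20 and Wdr43. The ETS motif CCGGAAG, read on both strands, was found for 9 genes (27.3%), against 9.93% of all genes, and the GC box GGGCGG for 23 (69.7%), against 38.2%. The palindromic motif of the factor BANP was found for none of the 33 and for 0.525% of all genes. The log2 differences between croton oil and vehicle of the 8 genes with CACGTG reached from 0.29 for Pes1 to 1.20 for Nop2 in LC-DTA ears and from 0.26 for Pes1 to 0.98 for Wdr43 in LC-DTR ears, nearly the range of all 38. The share of all genes covers every gene with a promoter, expressed in the ear or not, and was not matched for base composition. CACGTG, the ETS motif and the GC box were all more frequent among the 33 genes, so the excess was not particular to CACGTG. A match describes the letters and does not show that a factor bound there. Of the 8, 4 were picked to be printed after the matches were seen, namely Rrn3 with its pair of matches, Nop2 and Imp4 with 1 before the start, and Wdr43 with 1 after it.
The motif is in capitals in each sequence, which runs 5′ to 3′ on the plus strand. Rrn3 is chr16:13780449-13780748, with matches that begin 215 and 48 bases before the start. Nop2 is chr6:125131633-125131932, with a match 60 bases before the start. Imp4 is chr1:34439579-34439878, with a match 121 bases before the start. Wdr43 is chr17:71615965-71616264, with a match at position 18, counted from 1 at the start. Before and after refer to RefSeq's start, and other annotations differ. In GENCODE M21 the gene begins 9 (Rrn3), 26 (Nop2) and 22 (Imp4) bases downstream of it, and for Wdr43 320 bases upstream of it.
Rrn3: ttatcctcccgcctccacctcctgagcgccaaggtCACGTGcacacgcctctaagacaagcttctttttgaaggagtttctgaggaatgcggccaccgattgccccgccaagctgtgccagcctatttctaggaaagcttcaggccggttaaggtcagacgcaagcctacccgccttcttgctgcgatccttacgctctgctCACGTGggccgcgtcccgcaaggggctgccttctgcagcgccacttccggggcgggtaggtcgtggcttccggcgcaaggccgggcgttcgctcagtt
Nop2: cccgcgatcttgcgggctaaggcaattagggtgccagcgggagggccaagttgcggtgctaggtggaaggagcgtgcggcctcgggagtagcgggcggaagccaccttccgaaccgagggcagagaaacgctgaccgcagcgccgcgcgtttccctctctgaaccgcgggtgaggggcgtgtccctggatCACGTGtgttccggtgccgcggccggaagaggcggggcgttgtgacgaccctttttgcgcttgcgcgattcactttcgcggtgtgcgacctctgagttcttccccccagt
Imp4: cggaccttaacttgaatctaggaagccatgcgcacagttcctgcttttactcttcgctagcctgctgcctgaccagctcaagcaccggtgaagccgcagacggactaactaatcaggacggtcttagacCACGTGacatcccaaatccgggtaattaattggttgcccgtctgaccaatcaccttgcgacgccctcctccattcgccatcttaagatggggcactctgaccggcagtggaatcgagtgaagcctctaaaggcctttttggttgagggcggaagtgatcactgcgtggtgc
Wdr43: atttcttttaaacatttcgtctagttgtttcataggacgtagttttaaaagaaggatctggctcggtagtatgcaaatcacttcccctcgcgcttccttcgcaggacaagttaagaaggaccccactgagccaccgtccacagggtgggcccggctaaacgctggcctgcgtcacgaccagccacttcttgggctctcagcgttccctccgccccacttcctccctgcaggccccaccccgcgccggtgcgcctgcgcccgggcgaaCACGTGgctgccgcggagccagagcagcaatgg

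Among the scaffold proteins and the box C/D snoRNP, which methylates ribosomal RNA, 7 of 7 genes rose in both genotypes. Their median log2 difference was 0.92 in LC-DTA ears and 0.79 in LC-DTR ears. Npm1 encodes nucleophosmin, an abundant nucleolar chaperone, and lies on GRCm38 chromosome 11 at 33152287 to 33163206 on the minus strand. It was the most abundant of the 38, with 783, 890, 920 and 872 TPM in LC-DTA croton oil samples, against 484, 442 and 449 TPM in LC-DTA vehicle samples. LC-DTR croton oil samples had 680, 593, 633 and 742 TPM of Npm1, against 506, 544 and 496 TPM in LC-DTR vehicle samples. The treatments did not overlap in either genotype, and the LC-DTA croton oil samples were the highest of all. Its log2 difference was 0.92 ± 0.078 (SE; limma adjusted p = 1.82e-06) in LC-DTA ears and 0.36 ± 0.078 (adjusted p = 0.00194) in LC-DTR ears. Near-identical stretches of Npm1 are annotated in 3 other genes, so its reads may be shared.

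Ncl encodes nucleolin, a nucleolar protein that binds nascent ribosomal RNA, and lies on chromosome 1 at 86344719 to 86359400 on the minus strand. It had 315, 370, 379 and 381 TPM in LC-DTA croton oil samples, against 209, 186 and 193 TPM in LC-DTA vehicle samples. In LC-DTR ears Ncl had 284, 248, 278 and 324 TPM after croton oil, against 196, 203 and 180 TPM after vehicle. The treatments were apart in both genotypes, and the vehicle samples of the genotypes overlapped. For Ncl the log2 difference was 0.88 ± 0.089 (SE; limma adjusted p = 4.88e-06) in LC-DTA ears and 0.55 ± 0.089 (adjusted p = 0.000244) in LC-DTR ears. Fbl encodes fibrillarin, the methyltransferase of the box C/D snoRNP, at bases 28169710 to 28179269 of chromosome 7 on the plus strand. It had 222, 225, 252 and 221 TPM in LC-DTA croton oil samples, against 156, 139 and 152 TPM in LC-DTA vehicle samples. LC-DTR croton oil samples had 211, 154, 186 and 217 TPM of Fbl, against 133, 144 and 124 TPM in LC-DTR vehicle samples. Croton oil sample 2 of LC-DTR lay just above the vehicle range, and the others lay well above it. Fbl rose by a log2 difference of 0.62 ± 0.10 (SE; limma adjusted p = 0.000171) in LC-DTA ears and of 0.51 ± 0.10 (adjusted p = 0.00102) in LC-DTR ears.

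Nop56 is a core protein of the same particle, and rose about as much in both genotypes. It had 197, 228, 225 and 222 TPM in LC-DTA croton oil samples, against 106, 99.1 and 111 TPM in LC-DTA vehicle samples. LC-DTR croton oil samples had 194, 117, 158 and 172 TPM of Nop56, against 93.6, 83.9 and 61.9 TPM in LC-DTR vehicle samples. No sample crossed between the treatments, and both LC-DTR groups spread more widely than the LC-DTA groups. The log2 difference of Nop56 was 1.04 ± 0.15 (SE; limma adjusted p = 7.28e-05) in LC-DTA ears and 0.99 ± 0.15 (adjusted p = 0.000159) in LC-DTR ears. Rrp9 encodes a protein of the snoRNP that guides the first cuts of the precursor. Rrp9 had 80.3, 83.6, 91.7 and 78.5 TPM in LC-DTA croton oil samples, against 42.7, 38.6 and 43.7 TPM in LC-DTA vehicle samples. It had 67.8, 46.3, 57.3 and 71 TPM in LC-DTR croton oil samples, against 33.1, 33.4 and 25.8 TPM in LC-DTR vehicle samples. The groups of each genotype were apart, and the log2 difference of Rrp9 was 0.99 ± 0.13 (SE; limma adjusted p = 2.98e-05) in LC-DTA ears and 0.94 ± 0.13 (adjusted p = 6.82e-05) in LC-DTR ears. The other 2 genes of this role were Nop58, a partner of Nop56, and Nolc1, a snoRNP chaperone. Nop58 averaged 281 ± 25 TPM after croton oil and 132 ± 6.25 TPM after vehicle in LC-DTA ears (SD), and 217 ± 29 TPM against 124 ± 8.9 TPM in LC-DTR ears. Nolc1 averaged 110 ± 4.21 TPM after croton oil and 64.2 ± 4.34 TPM after vehicle in LC-DTA ears (SD), and 93 ± 16.4 TPM against 51.6 ± 8.19 TPM in LC-DTR ears.

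The box H/ACA snoRNP converts uridines of ribosomal RNA to pseudouridine, and its 4 genes did not move alike. All 4 rose in LC-DTA ears and 3 of 4 in LC-DTR ears, with medians of 0.63 and 0.60. Dkc1 encodes dyskerin, the enzyme of the particle, which also belongs to telomerase, and lies on chromosome X at 75095854 to 75109777 on the plus strand. It had 92.2, 101, 107 and 104 TPM in LC-DTA croton oil samples, against 46.4, 42.9 and 46.1 TPM in LC-DTA vehicle samples. In LC-DTR ears Dkc1 had 78.3, 59.8, 73.4 and 82.7 TPM after croton oil, against 47.9, 48.7 and 40.4 TPM after vehicle. Every LC-DTA croton oil sample exceeded every LC-DTR croton oil sample, while the vehicle samples of the genotypes overlapped. The log2 difference of Dkc1 was 1.14 ± 0.10 (SE; limma adjusted p = 2.01e-06) in LC-DTA ears and 0.67 ± 0.10 (adjusted p = 0.000125) in LC-DTR ears.

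Nop10, a small core protein of the particle, had the smallest difference of the 38 in LC-DTR ears. Its level was 124, 105, 102 and 105 TPM in LC-DTA croton oil samples, against 88.2, 83.4 and 87.5 TPM in LC-DTA vehicle samples. In LC-DTR ears Nop10 had 116, 79.3, 102 and 103 TPM after croton oil, against 93.6, 104 and 87.8 TPM after vehicle. The LC-DTA treatments were apart, and the LC-DTR treatments overlapped on both sides. Its log2 difference was 0.33 ± 0.11 (SE; limma adjusted p = 0.0176) in LC-DTA ears. In LC-DTR ears Nop10 was not called, at 0.06 ± 0.11 (adjusted p = 0.646), with a 95% interval of -0.17 to 0.29. Gar1 and Nhp2, the remaining core proteins, rose in both genotypes. Gar1 had a log2 difference of 0.65 ± 0.099 in LC-DTA ears and 0.67 ± 0.099 in LC-DTR ears. Nhp2 had a log2 difference of 0.61 ± 0.088 in LC-DTA ears and 0.53 ± 0.088 in LC-DTR ears.

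All 3 RNA polymerase I genes rose in both genotypes, with a median log2 difference of 0.77 in LC-DTA ears and 0.40 in LC-DTR ears. Polr1a encodes the largest subunit and lies on chromosome 6 at 71909053 to 71984935 on the plus strand. It had 27.7, 31.7, 27.4 and 28.8 TPM in LC-DTA croton oil samples, against 16.7, 16 and 17 TPM in LC-DTA vehicle samples. LC-DTR croton oil samples had 24.2, 17.6, 22.4 and 21.8 TPM of Polr1a, against 17.6, 17.3 and 13.3 TPM in LC-DTR vehicle samples. The LC-DTA treatments were far apart, while LC-DTR croton oil sample 2 lay at the level of the highest vehicle sample. For Polr1a the log2 difference was 0.77 ± 0.11 (SE; limma adjusted p = 5.49e-05) in LC-DTA ears and 0.40 ± 0.11 (adjusted p = 0.00751) in LC-DTR ears. Rrn3 encodes the factor that brings RNA polymerase I to its promoter, at bases 13780708 to 13814839 of chromosome 16 on the plus strand, and its own promoter is printed above. Rrn3 had 61.2, 72.2, 68.1 and 71 TPM in LC-DTA croton oil samples, against 51.1, 48.7 and 50.2 TPM in LC-DTA vehicle samples. It had 55.5, 53.8, 57.2 and 57 TPM in LC-DTR croton oil samples, against 47.6, 44.3 and 42.4 TPM in LC-DTR vehicle samples. The change was small beside that of other factors, and no samples of a genotype crossed between treatments. Its log2 difference was 0.44 ± 0.063 (SE; limma adjusted p = 6.08e-05) in LC-DTA ears and 0.31 ± 0.063 (adjusted p = 0.000994) in LC-DTR ears. Polr1b, the second largest subunit, had a log2 difference of 0.89 ± 0.16 in LC-DTA ears and 0.90 ± 0.16 in LC-DTR ears.

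**Figure D2:**
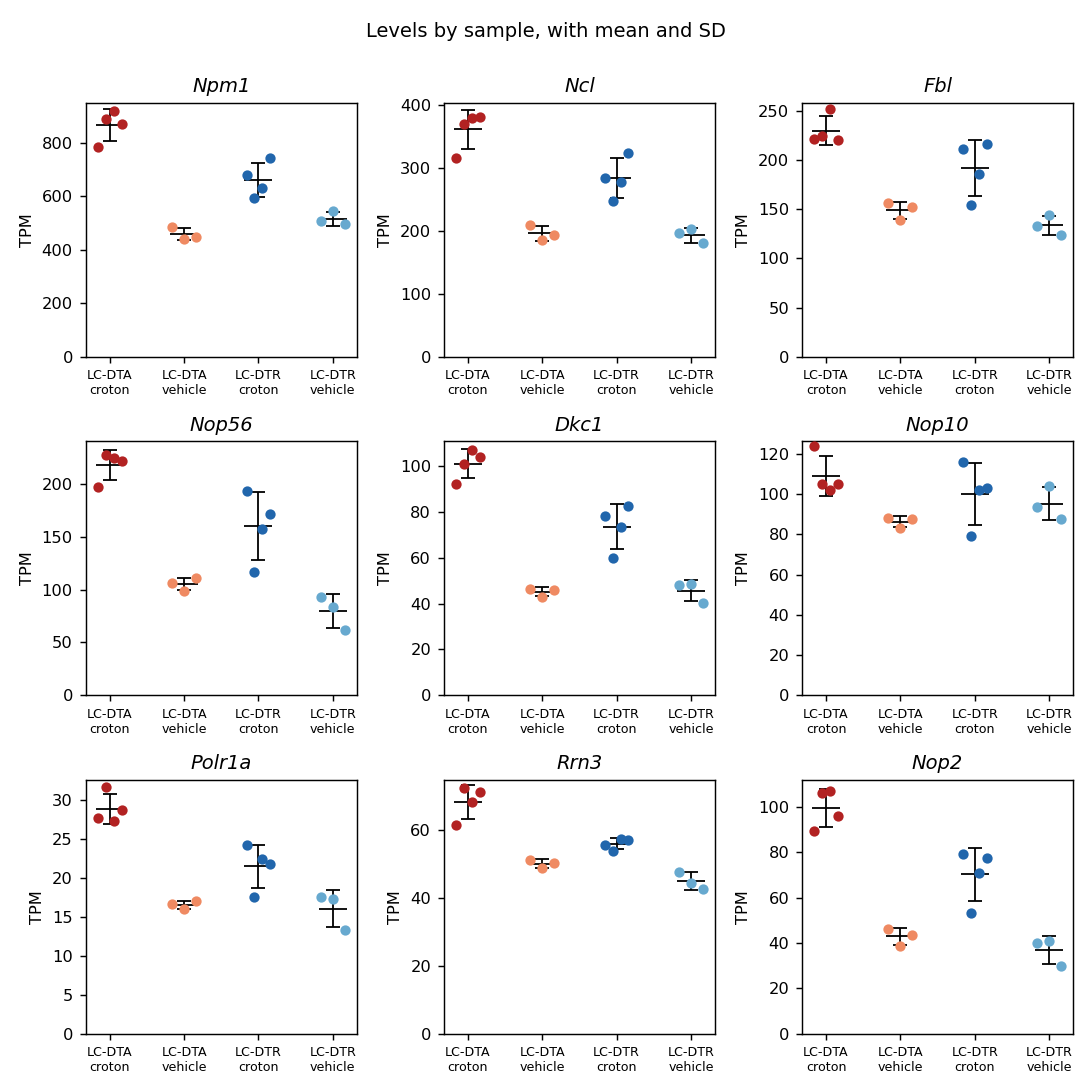
Levels in TPM (vertical axes, from 0) of 9 factors in each sample, by genotype and treatment, with a bar for the mean and whiskers for the SD. Croton oil samples lie above vehicle samples in both genotypes for 7 of the panels, and the LC-DTR treatments overlap for Nop10 and Polr1a.

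Of the 14 factors of the small subunit processome and later small subunit assembly, 14 rose in each genotype. Their median log2 difference was 0.69 in LC-DTA ears and 0.63 in LC-DTR ears. The largest change of the group in each genotype was that of Wdr43, a subunit of the complex that loads onto the 5′ end of the precursor. Wdr43 had 124, 165, 166 and 173 TPM in LC-DTA croton oil samples, against 79.2, 72.9 and 78.3 TPM in LC-DTA vehicle samples. In LC-DTR ears it had 129, 113, 118 and 147 TPM after croton oil, against 69, 66 and 56.2 TPM after vehicle. Treatments were apart in both genotypes, and LC-DTA croton oil sample 1 was far below the other 3 of its group. For Wdr43 the log2 difference was 1.01 ± 0.12 (SE; limma adjusted p = 1.08e-05) in LC-DTA ears and 0.98 ± 0.12 (adjusted p = 2.26e-05) in LC-DTR ears. Utp20, a large protein of the processome, was among the least abundant factors. It had 25.3, 30.1, 30.8 and 29.7 TPM in LC-DTA croton oil samples, against 14.8, 14.1 and 13.8 TPM in LC-DTA vehicle samples. LC-DTR croton oil samples had 22.9, 15.1, 18.8 and 21.7 TPM of Utp20, against 16.1, 15.2 and 10.7 TPM in LC-DTR vehicle samples. In LC-DTR ears croton oil sample 2 lay inside the vehicle range, and in LC-DTA ears no sample did. Utp20 had a log2 difference of 0.97 ± 0.14 (SE; limma adjusted p = 7.21e-05) in LC-DTA ears and 0.46 ± 0.14 (adjusted p = 0.0152) in LC-DTR ears. Without LC-DTR vehicle sample 3 the LC-DTR value was 0.29 (adjusted p = 0.091), and with the LC-DTR samples alone it was 0.46 (adjusted p = 0.0575). Over all 27 alternatives that adjusted p lay between 0.0023 and 0.091.

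Rrp12 takes part in the export of both subunits, Nob1 is the nuclease that makes the last cut of the small subunit RNA, and Rcl1 acts in early cuts of the precursor. Rrp12 had 41.4, 49.6, 53.7 and 48.4 TPM in LC-DTA croton oil samples, against 29.2, 29.8 and 30.5 TPM in LC-DTA vehicle samples. It had 38.2, 28.2, 35.5 and 37.7 TPM in LC-DTR croton oil samples, against 25.2, 21.7 and 18.2 TPM in LC-DTR vehicle samples. The treatments did not overlap, and the LC-DTA vehicle samples lay above the LC-DTR ones. Rrp12 had a log2 difference of 0.67 ± 0.12 (SE; limma adjusted p = 0.000312) in LC-DTA ears and 0.66 ± 0.12 (adjusted p = 0.000465) in LC-DTR ears. Nob1 had 73.7, 82.4, 78.6 and 75 TPM in LC-DTA croton oil samples, against 63, 58.2 and 59.5 TPM in LC-DTA vehicle samples. Its LC-DTR croton oil samples had 74.4, 66.2, 69.7 and 78 TPM, against 47.8, 51.8 and 45.5 TPM in LC-DTR vehicle samples. The croton oil groups of the genotypes overlapped and the vehicle groups did not. Nob1 rose by a log2 difference of 0.36 ± 0.068 (SE; limma adjusted p = 0.00053) in LC-DTA ears and of 0.57 ± 0.068 (adjusted p = 2.49e-05) in LC-DTR ears. Rcl1 had 81.5, 83.7, 82.4 and 83.2 TPM in LC-DTA croton oil samples, against 64.3, 57.7 and 64.6 TPM in LC-DTA vehicle samples. Its LC-DTR croton oil samples had 76.4, 66, 67.6 and 77.4 TPM, against 46.7, 48.3 and 47.6 TPM in LC-DTR vehicle samples. For Rcl1, as for Nob1, the lowest vehicle samples were those of LC-DTR, and the treatments were apart. The log2 difference of Rcl1 was 0.41 ± 0.064 (SE; limma adjusted p = 0.000126) in LC-DTA ears and 0.58 ± 0.064 (adjusted p = 1.35e-05) in LC-DTR ears.

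The other 9 genes of the group had log2 differences between 0.52 and 0.98 in LC-DTA ears and between 0.35 and 0.89 in LC-DTR ears. Ddx21, an RNA helicase, averaged 193 ± 18.9 TPM after croton oil and 97.3 ± 3.86 TPM after vehicle in LC-DTA ears (SD), and 150 ± 20.2 TPM against 81.1 ± 11.4 TPM in LC-DTR ears. Bysl, which takes part in small subunit maturation, averaged 37.4 ± 1.66 TPM after croton oil and 20.8 ± 2.54 TPM after vehicle in LC-DTA ears (SD), and 30.2 ± 4.96 TPM against 15.8 ± 2.24 TPM in LC-DTR ears. Ltv1, which leaves the small subunit late in its maturation, changed less, with 123 ± 7.38 TPM after croton oil and 85.7 ± 8.07 TPM after vehicle in LC-DTA ears (SD), and 106 ± 4.73 TPM against 82.5 ± 1.08 TPM in LC-DTR ears. The processome genes Heatr1, Wdr75, Nop14 and Imp4, the GTPase-like factor Tsr1 and the RNA acetyltransferase Nat10 made up the rest. Nat10 overlapped between treatments in LC-DTR ears through croton oil sample 2, at 24 TPM, against 25.8, 24.6 and 17 TPM in the vehicle samples, and rose there by 0.55 ± 0.16 (SE; limma adjusted p = 0.0108).

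All 10 factors of large subunit assembly rose in both genotypes, with a median log2 difference of 0.87 in LC-DTA ears and 0.80 in LC-DTR ears. The group held the largest change in each genotype and also some of the smallest. Nop2, a methyltransferase of the large subunit RNA at bases 125131909 to 125144753 of chromosome 6 on the plus strand, had the largest change of the 38 in LC-DTA ears. It had 89.5, 106, 107 and 96.2 TPM in LC-DTA croton oil samples, against 46.3, 38.8 and 43.6 TPM in LC-DTA vehicle samples. LC-DTR croton oil samples had 79.4, 53.4, 71 and 77.4 TPM of Nop2, against 39.9, 41.1 and 29.9 TPM in LC-DTR vehicle samples. Neither genotype had an overlap between treatments, and croton oil samples of LC-DTA all lay above those of LC-DTR. The log2 difference of Nop2 was 1.20 ± 0.14 (SE; limma adjusted p = 1.01e-05) in LC-DTA ears and 0.91 ± 0.14 (adjusted p = 0.00013) in LC-DTR ears. Rrs1, which joins with the small ribosomal RNA made by RNA polymerase III, had the largest change in LC-DTR ears. Rrs1 had 117, 119, 134 and 122 TPM in LC-DTA croton oil samples, against 58.9, 51.6 and 58.4 TPM in LC-DTA vehicle samples. It had 108, 74, 94.2 and 118 TPM in LC-DTR croton oil samples, against 49.1, 50.1 and 41.7 TPM in LC-DTR vehicle samples. The treatments were far apart, and the LC-DTR croton oil samples spread most. Rrs1 rose by a log2 difference of 1.11 ± 0.13 (SE; limma adjusted p = 1e-05) in LC-DTA ears and of 1.04 ± 0.13 (adjusted p = 2.74e-05) in LC-DTR ears.

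Gnl3, or nucleostemin, is a GTP-binding nucleolar protein known from stem and cancer cells. It had 182, 237, 234 and 250 TPM in LC-DTA croton oil samples, against 128, 114 and 133 TPM in LC-DTA vehicle samples. In LC-DTR ears Gnl3 had 210, 183, 185 and 220 TPM after croton oil, against 118, 103 and 79.1 TPM after vehicle. Treatments did not overlap, and the croton oil groups of the genotypes did. Its log2 difference was 0.84 ± 0.13 (SE; limma adjusted p = 0.000118) in LC-DTA ears and 1.00 ± 0.13 (adjusted p = 4.94e-05) in LC-DTR ears. Wdr12 forms a complex with Pes1 and Bop1 that is needed to mature the large subunit RNA. Wdr12 had 37.5, 42.8, 41.6 and 43.3 TPM in LC-DTA croton oil samples, against 20, 15.5 and 18.5 TPM in LC-DTA vehicle samples. It had 30.4, 23.9, 31.5 and 33.9 TPM in LC-DTR croton oil samples, against 16.8, 18.6 and 14.6 TPM in LC-DTR vehicle samples. The croton oil samples of LC-DTA stood above all others, and the log2 difference of Wdr12 was 1.16 ± 0.12 (SE; limma adjusted p = 4.8e-06) in LC-DTA ears and 0.81 ± 0.12 (adjusted p = 0.000107) in LC-DTR ears. The 3 proteins of this complex changed by unequal amounts. Bop1 had a log2 difference of 0.79 ± 0.13 in LC-DTA ears and 0.47 ± 0.13 in LC-DTR ears. Pes1 had the smallest called changes of the 38, at 0.29 ± 0.068 (SE; limma adjusted p = 0.00231) in LC-DTA ears and 0.26 ± 0.068 (adjusted p = 0.00655) in LC-DTR ears. Nop16, Mrto4, Ebna1bp2 and the helicase gene Ddx18 had log2 differences between 0.72 and 1.08 in LC-DTA ears and between 0.55 and 0.92 in LC-DTR ears.

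**Figure D3:**
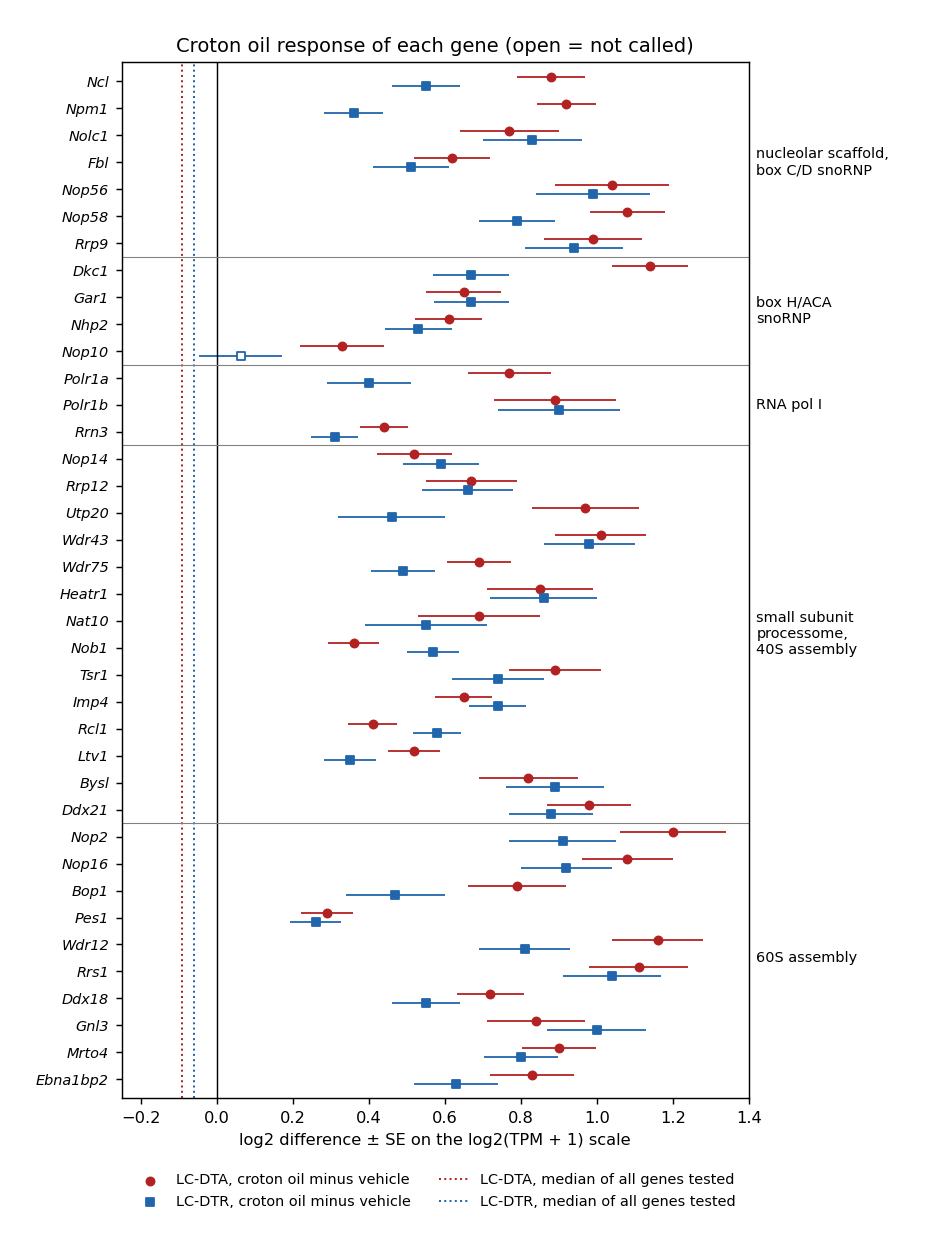
Log2 difference of each factor between croton oil and vehicle (horizontal axis, log2(TPM + 1) scale; bars, SE), for LC-DTA and LC-DTR ears, ordered by role. The 38 points of LC-DTA lie between 0.29 and 1.20 and those of LC-DTR between 0.06 and 1.04, right of the dotted medians of all genes, and Nop10 in LC-DTR is the only open point.

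The size of the response differed between factors in a similar order in both genotypes. Across the 38 genes the log2 differences of the genotypes, which share no samples, had a Pearson r of 0.70 and a Spearman rho of 0.66, and genes are not independent replicates. The difference was larger in LC-DTA ears for 28 factors and larger in LC-DTR ears for 10. The median difference of the responses was 0.11 for the factors and -0.021 for all genes tested. Only 2 factors were called with a larger response in LC-DTA ears (5.26%), against 10.5% of all genes. The median of the factors shrank without LC-DTR croton oil sample 2, as given below. The order of levels was steadier than the levels. Npm1 and Ncl had the highest mean level in each of the 4 groups, and Utp20, Polr1a and Bysl were the ones found at the low end, with the highest mean 30 to 36.7 times the lowest.

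Variation within a group was also shared between factors. LC-DTR vehicle sample 3 was lowest in its group for 36 of 38 factors, LC-DTA vehicle sample 2 for 35 and LC-DTA croton oil sample 1 for 28. Their median deviations were -0.17, -0.07 and -0.14 on the log2 scale. The median coefficient of variation of a factor was 6.7% in LC-DTA croton oil, 4.84% in LC-DTA vehicle, 13.2% in LC-DTR croton oil and 11.8% in LC-DTR vehicle samples. Neutrophil markers summed to 770, 340, 262 and 727 TPM in the 4 LC-DTR croton oil samples, so that the 2 samples with the lower sums of the factors also had the lower neutrophil sums, and its part in the results was not tested.

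In every comparison of the genotypes, genotype, duration of the cell loss and toxin, named for LC-DTR only, go together. The numbers in the sample labels also separate the genotypes, at 10575 to 10797 for LC-DTA and 10825 to 11098 for LC-DTR. Their parts in a difference between the genotypes cannot be told apart. Within LC-DTR the croton oil samples are numbered 10851 to 10854, and the vehicle samples 10825, 10968 and 11098. Within LC-DTA the croton oil samples are 10601, 10602, 10796 and 10797, and the vehicle samples 10575, 10619 and 10599. Whether these numbers bear on the croton oil comparisons was not tested. Under vehicle few of the factors were called between the genotypes. Of the 38, 4 were higher in LC-DTA than in LC-DTR ears (10.5%), against 19.1% of all genes tested, and none was lower, against 5.34%. The median log2 difference of the factors was 0.21, with a range of -0.17 to 0.45, and that of all genes was 0.10. At an unadjusted p under 0.05 there were 16 of the 38, against 37.4% of all genes, which is near that background. The 4 genes were Rcl1 at 0.38 ± 0.068 (SE; limma adjusted p = 0.00206), Nob1 at 0.31 ± 0.072 (adjusted p = 0.00778), Rrp12 at 0.45 ± 0.13 (adjusted p = 0.0195) and Rrp9 at 0.43 ± 0.14 (adjusted p = 0.0358). Rcl1, Nob1 and Rrp12 are small subunit factors, and Rrp9 belongs to a snoRNP. Rcl1 kept its call in each of 27 alternatives, and the other 3 lost it in 1 (Nob1), 5 (Rrp12) and 10 (Rrp9). Of all calls in this comparison 78.2% were higher in LC-DTA ears, against 54.1% with median ratio scaling and 47.7% with quantile normalization. These shifted the median of all genes by -0.10 and -0.11 and gave 1 and 3 calls among the 38. Leaving out single samples gave 2 to 10 calls, the highest without LC-DTR croton oil sample 2 and the lowest without LC-DTA vehicle sample 3 or LC-DTR vehicle sample 2 or 3. Without LC-DTR vehicle sample 1 there were 8. For Ncl the difference was 0.02, with a 95% interval of -0.19 to 0.22, and for Dkc1 it was -0.01, with an interval of -0.24 to 0.22. Npm1 was lower in every LC-DTA vehicle sample than in every LC-DTR vehicle sample, the only factor so ordered, against 11.1% of all genes, and it was not called, at -0.17 ± 0.084 (adjusted p = 0.159). The groups were separate with LC-DTA higher for 18 factors, against 31.4% of all genes.

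After croton oil most of the factors were higher in LC-DTA than in LC-DTR ears. Of the 38, 27 were called higher (71.1%), against 34.3% of all genes tested, and none was lower, against 18% of all genes. Their median log2 difference was 0.35, with a range of 0.04 to 0.55, and that of all genes was 0.09. By role, 6 of 7 scaffold and box C/D genes, 1 of 4 box H/ACA genes, 2 of 3 RNA polymerase I genes, 11 of 14 small subunit factors and 7 of 10 large subunit factors were called. The largest differences were those of Utp20 at 0.55 ± 0.13 (SE; limma adjusted p = 0.0032), Nop2 at 0.51 ± 0.13 (adjusted p = 0.00388) and Rrp9 at 0.47 ± 0.12 (adjusted p = 0.00464). Npm1, at 0.39 ± 0.073 (adjusted p = 0.000588), and Dkc1, at 0.46 ± 0.092 (adjusted p = 0.000991), had the lowest adjusted p of the 38. For 19 factors the croton oil samples of LC-DTA all lay above those of LC-DTR, against 29.6% of all genes. The smallest differences were those of Nhp2, at 0.04, and Pes1, at 0.05, with 95% intervals of -0.14 to 0.22 and -0.08 to 0.19. Without LC-DTR croton oil samples 2 and 3 there were 13 calls and a median of 0.22, and without LC-DTA croton oil samples 3 and 4 there were 14 calls. Of all calls in this comparison 65.6% were higher in LC-DTA ears, against 50.1% with either rescaling, and 19 of the 38 were called with median ratio scaling and 25 with quantile normalization.

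The difference between the responses was called for 2 factors (5.26%), against 10.5% of all genes with a larger difference in LC-DTA ears, and for none in the other direction, against 12.6% of all genes. They were Npm1, whose response was larger in LC-DTA ears by 0.56 ± 0.11 on the log2 scale (SE; limma adjusted p = 0.00382, 95% interval 0.32 to 0.80), and Dkc1, by 0.47 ± 0.14 (adjusted p = 0.0278, 0.17 to 0.78). The Npm1 call was kept in 26 of 26 alternatives, with an adjusted p of 0.00264 to 0.0214, and the Dkc1 call was lost in 6 of 26, with an adjusted p of 0.00878 to 0.102. These 6 left out LC-DTA croton oil sample 3, LC-DTA vehicle sample 2, LC-DTR vehicle sample 1 or LC-DTR vehicle sample 2, or both of LC-DTA croton oil 3 and 4 or of LC-DTR croton oil 2 and 3. At an unadjusted p under 0.05 there were 6 of the 38, against 36.9% of all genes. The median of the 38 was 0.11, with a range of -0.21 to 0.56, and it was -0.04 without LC-DTR croton oil samples 2 and 3 and 0.02 without sample 2 alone. In that setting without samples 2 and 3, 1 factor was called higher and 3 lower. Ncl lay at 0.33 (adjusted p = 0.0733), Utp20 at 0.51 (adjusted p = 0.0821) and Polr1a at 0.37 (adjusted p = 0.0993). For Polr1b the difference was 0.00 with a 95% interval of -0.48 to 0.48, so a sizeable difference in either direction could not be seen. Nob1, at -0.21, and Rcl1, at -0.18, were the lowest and were not called.

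The rest of the pathway was taken from lists of 141 other ribosome biogenesis genes, all of which were tested. After croton oil, 119 of these rose and 3 fell in LC-DTA ears, with a median log2 difference of 0.51, and 108 rose and 5 fell in LC-DTR ears, with a median of 0.42. Of all genes tested, 24.2% rose and 34.5% fell in LC-DTA ears, and 22.1% rose and 29.5% fell in LC-DTR ears. The lists were not even. Of 54 further large subunit factors, 47 rose and 1 fell in LC-DTA ears, and 48 rose in LC-DTR ears. Rpf2, a partner of Rrs1, averaged 51.8 ± 1.75 TPM after croton oil and 23.6 ± 2.41 TPM after vehicle in LC-DTA ears (SD), a log2 difference of 1.11 ± 0.11 (SE). Nip7, an RNA-binding factor, averaged 46.6 ± 5.37 TPM after croton oil and 25.1 ± 0.589 TPM after vehicle in LC-DTR ears (SD), a difference of 0.86 ± 0.09 (SE). The one that fell in LC-DTA ears was Gltscr2, also called Nop53, which recruits the exosome to the large subunit. Gltscr2 averaged 245 ± 12.1 TPM after croton oil and 438 ± 22.8 TPM after vehicle in LC-DTA ears (SD), a log2 difference of -0.84 ± 0.077 (SE; limma adjusted p = 2.67e-06). The response of Gltscr2 also differed between the genotypes, by -0.83 ± 0.11 (adjusted p = 0.000439).

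Of 46 further small subunit factors, 40 rose in LC-DTA ears, and 37 rose and 1 fell in LC-DTR ears. Cirh1a, a processome gene, averaged 112 ± 9.13 TPM after croton oil and 54.5 ± 4.52 TPM after vehicle in LC-DTA ears (SD), and 78.8 ± 10.4 TPM against 42.1 ± 1.94 TPM in LC-DTR ears. Of 11 further snoRNP proteins and assembly factors, 10 rose in LC-DTA ears, and 7 rose and 1 fell in LC-DTR ears. Nhp2l1, the RNA-binding protein at the base of box C/D particles, averaged 151 ± 5.9 TPM after croton oil and 86.5 ± 0.843 TPM after vehicle in LC-DTA ears (SD). Of 17 exosome subunits and nucleases, which trim the precursor, 15 rose in LC-DTA ears, and 11 rose and 1 fell in LC-DTR ears. RNA polymerase I and its cofactors had the lowest share. In LC-DTA ears 7 of 13 were higher (53.8%, against 24.2% of all genes) and 2 lower. In LC-DTR ears 5 were higher (38.5%, against 22.1% of all genes) and 2 lower. Polr1e, a subunit, averaged 17 ± 0.815 TPM after croton oil and 8.46 ± 0.986 TPM after vehicle in LC-DTA ears (SD). Ubtf, the factor that keeps ribosomal RNA genes open, averaged 97.8 ± 5.29 TPM after croton oil and 119 ± 1.72 TPM after vehicle in LC-DTA ears (SD), a log2 difference of -0.29 ± 0.066 (SE; limma adjusted p = 0.00214). In LC-DTR ears Ubtf was not called, at 0.14 ± 0.066 (limma adjusted p = 0.0846), with 99.4 ± 5.5 TPM against 90.1 ± 7.73 TPM. Under vehicle Ubtf was higher in LC-DTA than in LC-DTR ears, by 0.40 ± 0.07 (limma adjusted p = 0.00169). After croton oil it was not called between the genotypes, at -0.023. The response of Ubtf differed between the genotypes by -0.43 ± 0.093 (limma adjusted p = 0.00618). Ubtf, Baz2a in LC-DTA ears, and Taf1b, Ttf1, Pih1d1, Nol7 and Exosc7 in LC-DTR ears were the members of these 4 lists that fell, and they were named after their values were seen.

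**Figure D4:**
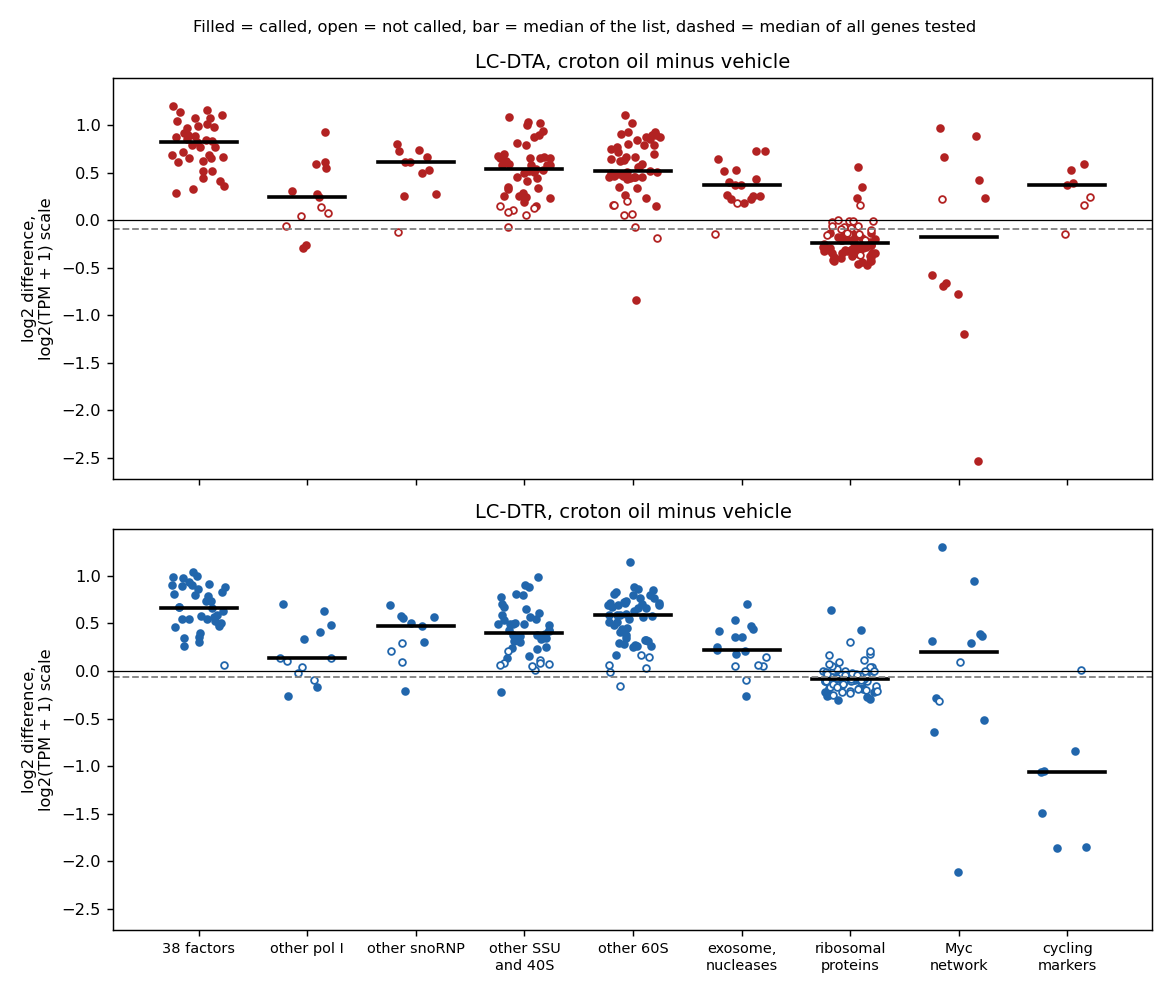
Log2 difference between croton oil and vehicle (vertical axis, log2(TPM + 1) scale) of each gene of 9 lists, LC-DTA above and LC-DTR below, with the list median as a bar. The 38 factors have the highest median of these 9 lists in each genotype, 0.83 and 0.67, ribosomal proteins lie at -0.23 and -0.08, and cycling cell markers at 0.37 and -1.06.

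The genes of the ribosomal proteins themselves did not rise with the factors. Of 78 cytosolic ribosomal protein genes tested, 3 rose and 57 fell in LC-DTA ears after croton oil, with a median log2 difference of -0.23, and 2 rose and 11 fell in LC-DTR ears, with a median of -0.08. The share that fell was 73.1% in LC-DTA ears, against 34.5% of all genes, and 14.1% in LC-DTR ears, against 29.5% of all genes, whose median there was -0.06. Their sum was 117450, 105551, 104899 and 107609 TPM in LC-DTA croton oil samples, against 131289, 130728 and 126132 TPM in LC-DTA vehicle samples. It was 124850, 123159, 123497 and 130079 TPM in LC-DTR croton oil samples, against 128601, 138427 and 132703 TPM in LC-DTR vehicle samples. The LC-DTA groups were apart, and the LC-DTR groups overlapped. Rpl13 averaged 1380 ± 126 TPM after croton oil and 1905 ± 56.6 TPM after vehicle in LC-DTA ears (SD), a log2 difference of -0.47 ± 0.076 (SE; limma adjusted p = 0.000163). Rps19, a small subunit protein, averaged 1816 ± 101 TPM after croton oil and 2293 ± 77 TPM after vehicle in LC-DTA ears (SD), a difference of -0.34 ± 0.061. These genes have many near-identical copies in the genome, so their single values are uncertain, and at 10.5 to 13.8% of all TPM their sum also bears on the TPM of other genes.

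**Figure D5:**
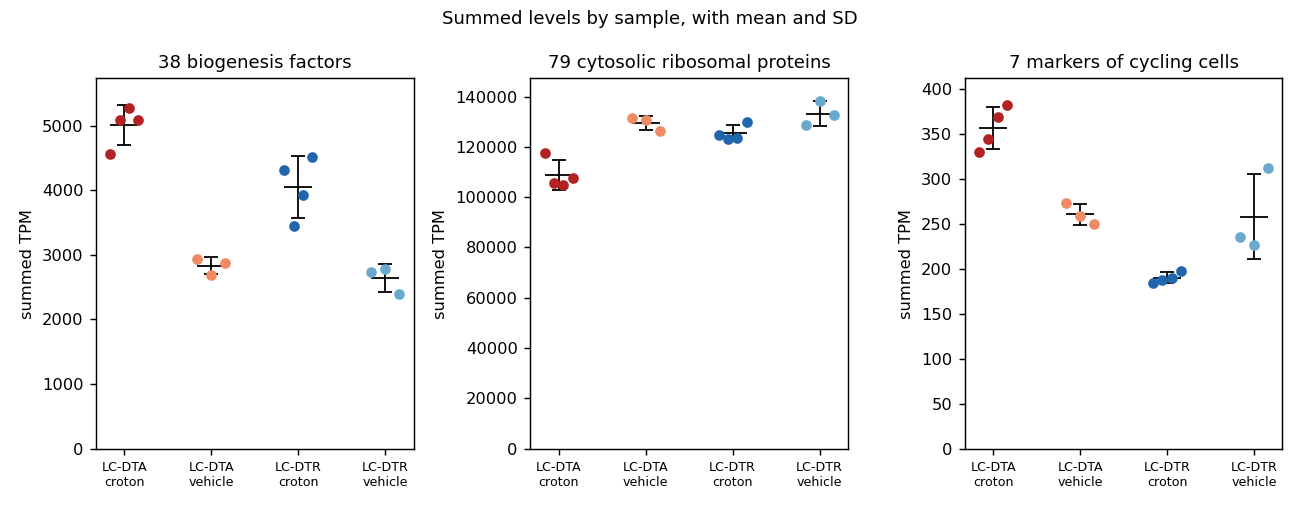
Summed TPM (vertical axes, from 0) of the 38 factors, 79 cytosolic ribosomal protein genes and 7 markers of cycling cells in each sample, with a bar for the mean and whiskers for the SD. The sum of the factors is higher after croton oil in both genotypes, that of the ribosomal proteins is not, and that of the cycling markers is 330 to 382 TPM in LC-DTA croton oil samples and 184 to 198 TPM in LC-DTR croton oil samples.

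Myc, whose motif was counted in the promoters, was higher after croton oil in both genotypes. It averaged 197 ± 15.1 TPM after croton oil and 99.8 ± 6.82 TPM after vehicle in LC-DTA ears (SD), a log2 difference of 0.97 ± 0.14 (SE; limma adjusted p = 7.11e-05). In LC-DTR ears Myc averaged 250 ± 38.9 TPM after croton oil and 102 ± 22.5 TPM after vehicle (SD), a difference of 1.30 ± 0.14 (SE; adjusted p = 1.32e-05). Its relative Mycl fell, to 6.49 ± 1.13 TPM against 42.4 ± 9.22 TPM in LC-DTA ears, and to 20.6 ± 8.92 TPM against 86.3 ± 4.01 TPM in LC-DTR ears (SD). Mxd1, a partner of Max that represses the same motif, rose by 0.66 ± 0.084 in LC-DTA ears and by 0.95 ± 0.084 in LC-DTR ears (SE). Its relatives did not move with it. Mxd4 was called lower in LC-DTA (-1.20) and LC-DTR ears (-0.51), and so was Mxi1 (-0.66 and -0.28). Mnt was lower in LC-DTA ears (-0.78) and not called in LC-DTR ears (0.10). Mxd3 was lower in LC-DTR ears (-0.64) and not called in LC-DTA ears (0.22). These relatives were named after their values were seen. Mlx, with the lowest p of the network in LC-DTA ears, rose by 0.89 ± 0.075 there and by 0.37 ± 0.075 in LC-DTR ears (SE). Max, also named after its values were seen, rose by 0.23 ± 0.055 in LC-DTA and 0.32 ± 0.055 in LC-DTR ears (SE). Of the 12 genes of this network, 5 rose (41.7%, against 24.2% of all genes) and 6 fell (34.5% of all genes) in LC-DTA ears. In LC-DTR ears 6 rose (50%, against 22.1% of all genes) and 4 fell (29.5% of all genes).

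Markers of cell types moved with the treatment as well, and their part in the results on the 38 factors was not tested. Of 6 neutrophil markers tested, 6 rose in each genotype, with sums of 441 to 668 TPM after croton oil and 33.6 to 64.6 TPM after vehicle in LC-DTA ears, and of 262 to 770 TPM against 25.9 to 68.8 TPM in LC-DTR ears. Keratinocyte markers summed to 25391 to 28535 TPM after croton oil and 31246 to 32611 TPM after vehicle in LC-DTA ears, and to 22406 to 28886 TPM against 35457 to 42410 TPM in LC-DTR ears, with 2 of 8 higher and 3 lower in LC-DTA ears, and 1 higher and 5 lower in LC-DTR ears. Cycling cell markers went apart, with 4 of 7 higher in LC-DTA ears and 6 of 7 lower in LC-DTR ears, and the difference of the responses was called for 7 of 7. Mcm2, a subunit of the replicative helicase named after its values were seen, averaged 17.9 ± 1.57 TPM after croton oil and 13.7 ± 1.09 TPM after vehicle in LC-DTA ears, and 4.6 ± 0.639 TPM against 19.1 ± 2.64 TPM in LC-DTR ears (SD). Fibroblast markers differed by genotype, at 4451 to 6067 TPM in LC-DTA against 2182 to 3225 TPM in LC-DTR croton oil samples, and at 7003 to 8813 TPM in LC-DTA against 2130 to 4872 TPM in LC-DTR vehicle samples. Macrophage and monocyte markers summed to 280 to 373 TPM in LC-DTA croton oil samples, against 115 to 161 TPM in LC-DTR croton oil samples. Of these 6 markers, 4 were called higher in LC-DTA than in LC-DTR ears already under vehicle, and 6 after croton oil. Between croton oil and vehicle, 3 rose and 1 fell in LC-DTA ears, and 1 rose in LC-DTR ears. No marker of these 5 lists was at 0 in every sample.

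Some of the 38 genes share sequence with others. In GENCODE M21, 8 factors have a stretch of at least 300 bases that is at least 95% identical in another gene, namely Npm1, Fbl, Nop56, Ddx21, Pes1, Wdr12, Ddx18 and Mrto4, and their values are uncertain to that extent. Exons of 15 factors overlap an antisense gene, Dkc1, Polr1a, Nop56, Rrp9, Wdr43, Wdr12 and Gnl3 among them, and the library kit keeps strand but whether the counting used it is not given. Genes for snoRNAs lie inside 7 of the factors, Ncl, Nop56, Nop58, Dkc1, Wdr43, Tsr1 and Gnl3, so that part of the modification machinery has both its proteins and its guide RNAs encoded by these genes.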

How the data were processed

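RNA of whole ears was extracted with Qiagen's RNeasy kit, and libraries were made with Illumina's TruSeq Stranded mRNA kit, per the labels' protocols. Among tools, HISAT2, cutadapt, featureCounts and Subread, and the genome build mm10, are listed without versions, per the submitters' processing notes. The annotation, the strand setting and how gene lengths entered were not given in the sources used here. The authors deposited TPM per gene and sample, which keep no depth, so no counting interval could be given. In all, 27 rows whose gene names had turned into dates, with 0.124 to 0.145% of the TPM, were left out, and 0 columns belonged to no sample.

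Groups came from the titles. Genes with at least 1 TPM in at least 3 samples (14693) were tested on log2(TPM + 1), a scale that understates changes of low genes, with limma 3.58.1 in R 4.3.3. A single fit of 4 group means over all 14 samples, with an intensity trend, gave 5 comparisons, each adjusted by Benjamini-Hochberg over all genes and called at an adjusted p under 0.05. The procedure was checked on simulated data. Tables and plots were made with Python 3.11.15, pandas 2.3.3 and matplotlib 3.10.9, and near-identical stretches were found with minimap2 2.31-r1302 in GENCODE M21 on GRCm38.

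Every sample is given for 17 factors and for Nop10 and Nat10, which were added after their values were seen. Of the 17, Ncl, Npm1, Fbl, Polr1a, Rrn3 and Dkc1 were fixed by name. The rest were picked by rule, for the largest called log2 differences in these data. Of the other lists, up to 3 genes with the lowest p per comparison are named, plus those said to have been chosen later. The members and lists were chosen with earlier results of these data known. Alternatives were other pseudocounts, filters, scalings and variance settings, a replicate block, the compared groups alone, and leaving out samples. The pair LC-DTR croton oil 2 and 3 was left out because earlier results showed them apart, and the pair LC-DTA croton oil 3 and 4 because their label numbers lie apart from those of 1 and 2. Leaving out LC-DTR croton oil sample 2 and vehicle sample 3 together was chosen after seeing the data.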

Additional observations from a re-analysis of the deposited data

Results flagged for a closer look

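In groups of 4 samples, a value was singled out when its gap to the next sample as a share of the group's whole range, exceeded Dixon's 95% critical value. Of 76 such groups, 7 met this, all in LC-DTA croton oil ears. Chance would give about 1 in 20 if the groups were independent. They are not, since the 38 factors were measured in the same samples. LC-DTA croton oil sample 1 was lowest in its group for 28 of the 38, so no excess over chance can be read from the 7. In 5 of the 7 sample 1 was the lowest. Ncl had 315 TPM there, against 370 to 381 TPM in the other 3 samples. Wdr43 had 124 TPM, against 165 to 173 TPM. Tsr1 had 46.6 TPM, against 63.2 to 66.6 TPM. Ddx21 had 165 TPM, against 202 to 203 TPM. Ddx18 had 67 TPM, against 76 to 77 TPM. The same sample was the highest for Nop10, with 124 TPM against 102 to 105 TPM, and sample 3 was the highest for Fbl, with 252 TPM against 221 to 225 TPM. The lowest values still lay above every LC-DTA vehicle sample.

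The croton oil response differed between the genotypes, by limma's test of the difference itself, for Npm1, by 0.56 on the log2 scale, and for Dkc1, by 0.47, both larger in LC-DTA ears. These 2 are 5.26% of the 38 factors, below the 10.5% of all genes called in that direction. The Dkc1 call was lost in 6 of 26 alternatives, with an adjusted p of up to 0.102.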

How the results depend on the processing

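The counts of factors that rose after croton oil changed little, with 35 to 37 in LC-DTR ears and 37 to 38 in LC-DTA ears when single samples were left out. The comparisons of the genotypes moved more. Under vehicle, where 4 factors were called, there was 1 with median ratio scaling, and there were 2 to 10 without single samples. There were 12 without LC-DTR croton oil samples 2 and 3. Those samples are not compared under vehicle, but they enter the shared estimate of spread, the filter and the adjustment. After croton oil, where 27 were called, there were 14 without LC-DTA croton oil samples 3 and 4, 13 without LC-DTR croton oil samples 2 and 3, and 20 to 29 without single samples. For the difference of the responses, where 2 were called higher, there were 5 with quantile normalization, 1 without LC-DTA croton oil samples 3 and 4, 1 higher and 3 lower without LC-DTR croton oil samples 2 and 3, 4 without both LC-DTR croton oil sample 2 and LC-DTR vehicle sample 3, and 1 to 4 without single samples. The median of the factors in that comparison turned from 0.11 to -0.044 without LC-DTR croton oil samples 2 and 3. Leaving samples out also lowers their number, and the cause of these changes was not tested. Whether the replicate numbers pair the samples could not be decided. Of 19 same-numbered pairs, 2 had deviations correlated above 0.1, with a range of -0.315 to 0.126. Differently numbered pairs reached from -0.389 to 0.403, so such correlations do not show whether samples were paired. With the replicate number as a block the counts were 37 in LC-DTR ears, 38 in LC-DTA ears, 3 under vehicle, 26 after croton oil and 2 for the difference. For the 17 factors given by sample, 459 of 459 alternative values in the LC-DTA croton oil comparison kept their direction and call. In the LC-DTR one 457 of 459 did, Utp20 being the exception. Most of the 17 were picked for large called differences in these same data, so this stability was partly built in.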
